A study of Mus musculus with 12 samples.

Results

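The 3 lactating libraries among 12 libraries of ductal macrophages from the mouse mammary gland were set against the 9 libraries of the other stages, with each of those stages weighted equally. All mice were C57BL/6 females. Lactating mice, whose day of lactation is not given in the labels, were compared with virgin mice, mice at day 16.5 of pregnancy and mice 1 month after weaning, with 3 libraries labelled as biological replicates at each stage. Each library was prepared from 2000 freshly sorted cells with SMART-Seq v4, a full-length cDNA method for small samples. The labels do not say how the cells were gated or whether animals were pooled. No allele, transgene or treatment is named for any group. Genes were called peculiar to lactation when they differed in 1 direction from virgin, from pregnant and from post-weaning libraries, in 3 separate tests.

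Ductal macrophages lie between the epithelial layers of the mammary ducts and alveoli. In pregnancy the epithelium grows into milk-producing alveoli, in lactation it secretes milk under the control of prolactin, and after weaning it is removed and the gland returns to a resting state. Macrophages sense microbes, cytokines and dying cells. Many of their inflammatory genes are switched on by NF-kB, and their own need for sterols is met by SREBP2, a transcription factor that turns on the genes of cholesterol synthesis and uptake when membrane sterol is low. Chemokines are small secreted proteins that draw leukocytes through receptors on the cells they attract.

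Lactating libraries held 6926273 to 10445732 counts and the others 8425970 to 21204704. Levels are given as CPM (a gene's count relative to the TMM-scaled library size, the standard depth-corrected unit), and log2 fold changes as lactating minus the mean of the 3 other stages, with the standard error of edgeR's fit. Coordinates are those of RefSeq on GRCm38.p6, the mm10 build. The 12 macrophage markers, F4/80 and the CSF-1 receptor among them, took 3.28%, 3.05% and 1.32% of the counts in lactating replicates 1, 2 and 3, and 2.54 to 6.2% (median 3.76%) in the other libraries. None of the 12 was at 0 in any library. The 7 markers of secretory epithelium were also above 0 in every lactating library, so presence alone does not identify the cells. Lactating replicate 3 stood apart. It had 10178 genes with a count, against 11462 and 11412 in replicates 1 and 2 and 11295 to 13790 in the other stages, and a mean correlation across genes of 0.713 with its own stage, against 0.778 and 0.781 for replicates 1 and 2. Markers of secretory epithelium took 6.72% of its counts, against 0.144% and 0.132% in lactating replicates 1 and 2 and at most 1.43% in the others. Results are therefore given with and without this library. The p-values measure the spread between samples labelled biological replicates. Fewer cells of a type and less RNA per cell cannot be told apart in such libraries.

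Lactating libraries differed from the mean of the other stages in 513 of 12672 genes tested (4.05%), of which 356 were higher (2.81%) and 157 lower (1.24%). Against single stages, 246 genes differed from virgin (1.94%), 488 from pregnant (3.85%) and 117 from post-weaning libraries (0.923%). The genes that differed from each other stage numbered 80 (0.631%), with 40 higher and 40 lower (0.316% each). In all 80 the 3 lactating libraries lay outside the range of the other 9, as they did above that range in 3.32% and below it in 3.16% of all genes tested. Without Lactating replicate 3, 595 of 13426 genes differed from the mean of the other stages (4.43%), with 381 higher (2.84%) and 214 lower (1.59%). There 416 genes differed from virgin (3.1%), 689 from pregnant (5.13%) and 242 from post-weaning libraries (1.8%), and 162 from each of them (1.21%), 93 higher (0.693%) and 69 lower (0.514%). The smaller sets were mostly kept in the larger ones. Of the 40 higher genes 37 (92.5%) were also called without that library, and they made up 39.8% of the 93. Of the 40 lower genes 34 (85%) were also called, 49.3% of the 69. The comparisons share the lactating libraries, so their calls are not independent.

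Higher genes were mostly nearest to lactation after weaning and farthest from it in pregnancy. Among the 40 higher genes, the post-weaning mean was the closest to the lactating one in 22, the virgin mean in 10 and the pregnant mean in 8, while the pregnant mean was the farthest in 24. Their median log2 fold change was 1.95 against virgin, 2.23 against pregnant and 1.73 against post-weaning libraries. Among the 40 lower genes the pregnant mean was closest in 19, the virgin mean in 14 and the post-weaning mean in 7. Leaving out 1 library at a time kept between 22 of the 80 genes, without Post-weaning replicate 2, and 71, without Lactating replicate 3. Without Post-weaning replicates 1 and 3 it kept 32 and 25, and without any other library 44 to 59. A core of 19 genes kept the call whichever library was left out. It held 7 higher genes (Ccl9, Cd207, Clic4, Cxcl3, Oasl1, Rilpl2 and Malt1) and 12 lower ones (Mettl21a, Igf1, Dusp6, Fam20c, Sox4, Zfp959, Krt19, Prorp, Hes1, Sesn2, Lysmd2 and Pdgfc). In limma-voom, an alternative fit, Fam20c, Hes1, Krt19 and Zfp959 lost the call with and without quality weights. Lysmd2 lost it with those weights.

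**Figure D1:**
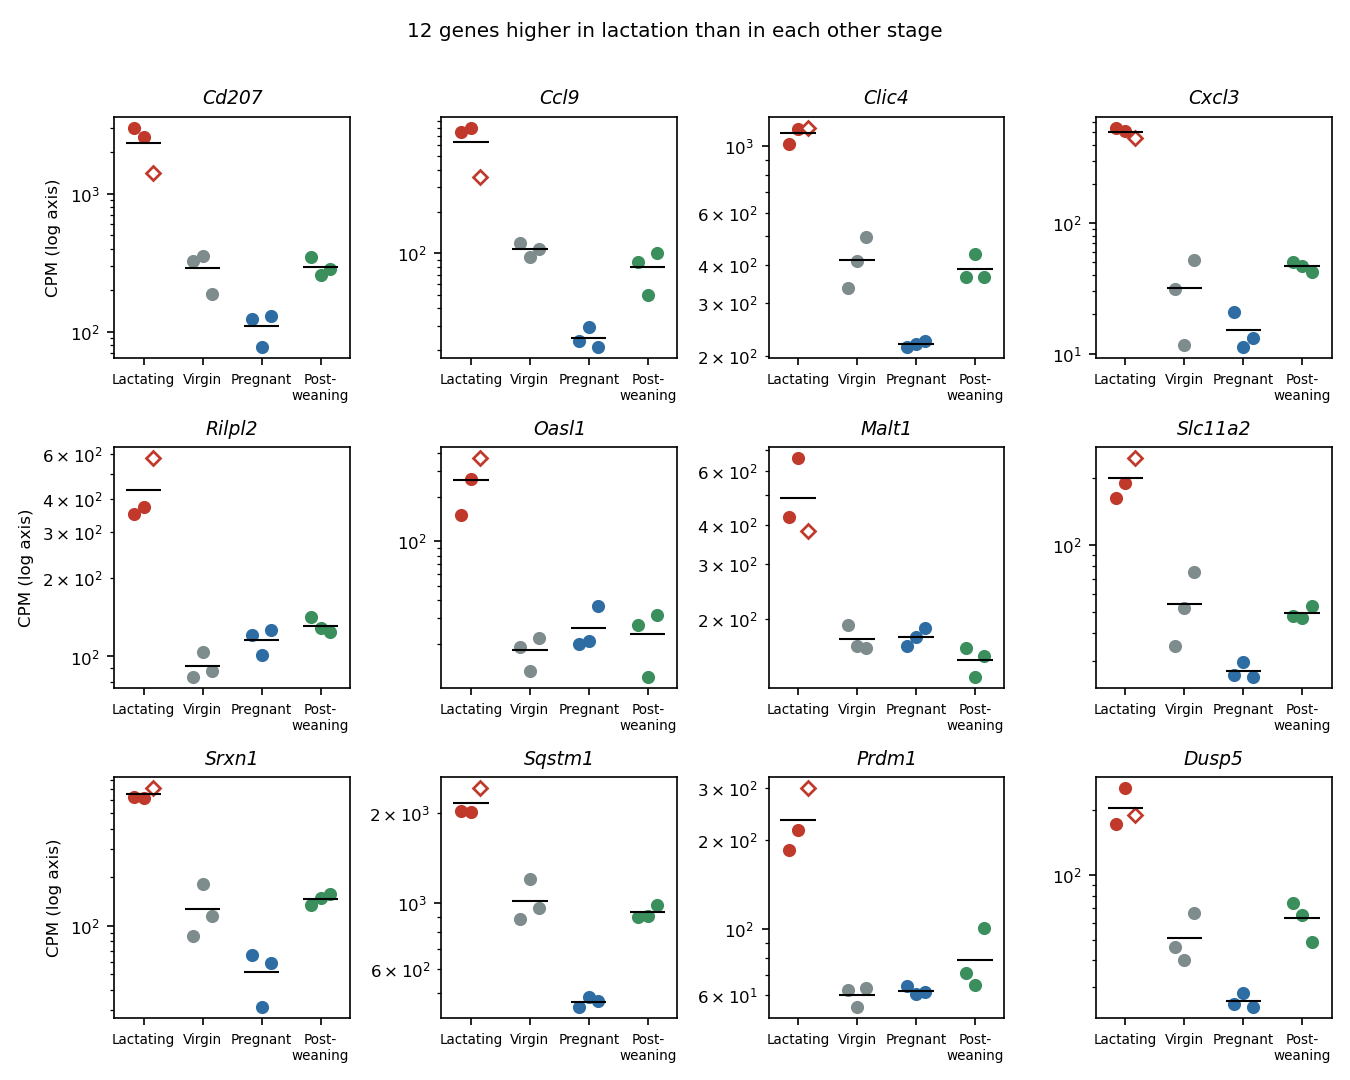
CPM on a log axis in each library for the 12 genes that rose against each other stage with the smallest of their largest adjusted p-values; lines are stage means, each point is 1 library and the open diamond is Lactating replicate 3. All 3 lactating points lie above the other 9 in every panel. Replicate 3 is the lowest of them for Cd207, Ccl9, Cxcl3 and Malt1. It is the highest for Rilpl2, Oasl1, Prdm1, Clic4, Slc11a2, Srxn1 and Sqstm1, and lies between the others for Dusp5.

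Chemokine genes were prominent among the higher genes. Ccl9, which encodes a ligand of the receptor CCR1 (chromosome 11, 83572917 to 83578636), had 754, 803 and 352 CPM in lactating libraries, against 119, 94.4 and 108 CPM in virgin, 23.4, 29.6 and 21.1 CPM in pregnant and 87, 50.4 and 101 CPM in post-weaning libraries. Cxcl3, a ligand of the neutrophil receptor CXCR2 (chromosome 5, 90786101 to 90788093), had 537, 509 and 451 CPM in lactating libraries, against 31.2, 11.6 and 51.9 CPM in virgin, 20.8, 11.2 and 13.1 CPM in pregnant and 50.7, 46.7 and 42.5 CPM in post-weaning libraries. For both genes the lactating libraries stood apart from all others, with the pregnant mean lowest. Ccl9 rose with a log2 fold change of 3.42 ± 0.24, adjusted p = 6.89e-05 (edgeR quasi-likelihood test, Benjamini-Hochberg adjustment), and by 2.57 against virgin, 4.69 against pregnant and 3.0 against post-weaning libraries. Cxcl3 rose with a log2 fold change of 4.15 ± 0.31, adjusted p = 8.32e-05, and by 3.98 against virgin, 5.05 against pregnant and 3.42 against post-weaning libraries. Neither depended on Lactating replicate 3, since without it the log2 fold changes were 3.66 for Ccl9 and 4.16 for Cxcl3.

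Ccl22, a ligand of CCR4, and Pf4, which encodes CXCL4, met the same rule with less room. Ccl22 had 107, 188 and 38.4 CPM in lactating libraries, against 15.1, 18.8 and 13 CPM in virgin, 15.5, 11.9 and 7.83 CPM in pregnant and 22.3, 18.6 and 18.4 CPM in post-weaning libraries. Pf4 (chromosome 5, 90772435 to 90773383) had 194, 103 and 88.7 CPM in lactating libraries, against 19.9, 23.2 and 15.6 CPM in virgin, 16.5, 16.6 and 15.7 CPM in pregnant and 44.8, 48.3 and 32.5 CPM in post-weaning libraries. Lactating replicate 3 was the lowest of its stage for both and still lay above all 9 others. Ccl22 rose with a log2 fold change of 2.85 ± 0.36, adjusted p = 0.00128, and Pf4 with a log2 fold change of 2.44 ± 0.24, adjusted p = 0.000302. Each differed from every stage in 1 of the 12 fits that left out a library, namely that without Lactating replicate 3, where the largest of the 3 adjusted p-values was 0.00328 for Ccl22 and 0.0178 for Pf4. With all 12 libraries those values were 0.0445 and 0.0487, against post-weaning libraries in each case.

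Other chemokine genes rose against the mean of the other stages but separated from each of them only in part. In the CC family 6 of 12 tested members rose and 0 fell, with a median log2 fold change of 2.18, and in the CXC family 4 of 10 rose and 0 fell, with a median of 1.29. Of all genes tested 2.81% rose and 1.24% fell, with a median of -0.06, which is the background for the lists below as well. Ccl3, which encodes MIP-1 alpha, had 8902, 6731 and 1715 CPM in lactating libraries and 556 to 2047 CPM (median 1116) in the 9 others. Ccl4, which encodes MIP-1 beta, had 13745, 9338 and 3012 CPM in lactating libraries and 788 to 3189.9 CPM (median 1481) in the 9 others. Replicate 3 lay inside the range of the other stages for both, while replicates 1 and 2 lay far above it. Ccl3 rose by 2.4 ± 0.34 on the log2 scale (adjusted p = 0.00253) with all libraries and by 2.78 ± 0.18 on the log2 scale (adjusted p = 1.06e-05) without replicate 3. Ccl4 rose by 2.46 ± 0.34 on the log2 scale (adjusted p = 0.00213) with all libraries and by 2.82 ± 0.22 on the log2 scale (adjusted p = 3.74e-05) without it. Both differed from each other stage when that library was left out. Ccl7 and Ccl5 rose by 4.59 and 2.68 on the log2 scale, and Ccl7 lost its call without Lactating replicate 1 (adjusted p = 0.0586). Without replicate 3, 8 of 13 CC genes rose, Ccl2 and Ccl6 among them, and again 4 of 10 CXC genes. The 5 neutrophil markers were at 0 in every lactating library and took at most 3.52e-05% of the counts of any other, with a median of 0%.

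The neighbouring genes Cxcl3, Cxcl1 and Cxcl2 lie in a cluster on chromosome 5 with Pf4. Their promoters are shown because they share a run of letters that is rare among mouse promoters. The kB letters GGAATTTCC, on either strand, occur in 94 of 32851 RefSeq promoter windows of 250 bases before a start (0.286%) and in 4 of the 10 CXC chemokine genes that have such a window, the fourth being Cxcl10. A form longer by 1 base at its start was searched first and shortened after its matches had been seen; it matched fewer windows and fewer CXC genes, so these shares are a description of letters chosen with the matches known. Capitals mark the match. The windows come from RefSeq on GRCm38.p6, plus strand, 5′ to 3′, at chr5:90785851-90786100 for Cxcl3, chr5:90890995-90891244 for Cxcl1 and chr5:90903649-90903898 for Cxcl2.
Cxcl3: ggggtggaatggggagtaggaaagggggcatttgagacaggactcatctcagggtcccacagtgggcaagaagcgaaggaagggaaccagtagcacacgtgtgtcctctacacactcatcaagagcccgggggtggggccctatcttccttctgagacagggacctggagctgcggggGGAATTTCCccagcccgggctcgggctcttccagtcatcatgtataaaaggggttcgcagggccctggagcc
Cxcl1: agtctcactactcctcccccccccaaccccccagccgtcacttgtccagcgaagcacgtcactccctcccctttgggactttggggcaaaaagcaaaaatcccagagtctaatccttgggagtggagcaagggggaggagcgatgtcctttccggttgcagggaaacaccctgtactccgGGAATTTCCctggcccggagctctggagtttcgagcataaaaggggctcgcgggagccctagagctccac
Cxcl2: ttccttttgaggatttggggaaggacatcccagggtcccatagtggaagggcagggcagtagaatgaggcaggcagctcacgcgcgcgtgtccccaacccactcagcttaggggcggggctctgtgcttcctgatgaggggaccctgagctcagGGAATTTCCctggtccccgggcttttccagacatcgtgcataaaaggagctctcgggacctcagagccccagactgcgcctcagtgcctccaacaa
The match ends 63, 61 and 87 bases before the start in Cxcl3, Cxcl1 and Cxcl2. A match is a description of letters, not a bound site or a cause. Among the 29 higher genes with a window that differed from each stage the letters were found in 1, Cxcl3, and among 31 such lower genes in 1, Dusp6. The 3 genes with these letters differed in how far lactation stood apart. Cxcl1 had 5249.9, 4418 and 1674 CPM in lactating libraries and 489 to 2291 CPM (median 1076) in the 9 others, and rose with a log2 fold change of 1.75 ± 0.26, adjusted p = 0.0035. Cxcl2 had 10085, 8975 and 5762 CPM in lactating libraries and 1249 to 5134 CPM (median 4554) in the 9 others, and rose with a log2 fold change of 1.22 ± 0.22, adjusted p = 0.00901. All 3 lactating libraries lay above the other 9 for Cxcl2, with replicate 3 nearest to them, while for Cxcl1 replicate 3 lay below the 3 post-weaning libraries. Without Lactating replicate 1 the Cxcl2 value was 1.01 (adjusted p = 0.0511). Only Cxcl3 met the rule against each stage with all 12 libraries.

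Of 35 tested NF-kB and inflammatory genes 16 rose and 0 fell, with a median log2 fold change of 1.03. Nfkb1, which encodes the p105 precursor of NF-kB p50, had 211, 292 and 157 CPM in lactating libraries and 31.5 to 106 CPM (median 57.3) in the 9 others (log2 fold change of 1.96 ± 0.24, adjusted p = 0.00102). Malt1, the protease of the complex that passes receptor signals to NF-kB, had 427, 659 and 384 CPM in lactating libraries and 129.5 to 190.2 CPM (median 163) in the 9 others (log2 fold change of 1.58 ± 0.16, adjusted p = 0.000367). Tnfaip2, a gene induced by TNF, had 627, 862 and 666 CPM in lactating libraries and 111 to 319 CPM (median 197) in the 9 others (log2 fold change of 1.8 ± 0.18, adjusted p = 0.000291). The lactating libraries lay above all others for these 3 genes, and each differed from every other stage. Malt1 did so in all 12 fits that left out a library, Tnfaip2 in 6 and Nfkb1 in 1, namely that without Lactating replicate 3. Rhbdf2, which encodes iRhom2, a partner of the protease that releases TNF, had 203, 234 and 158 CPM in lactating libraries and 31.1 to 74 CPM (median 64.2) in the 9 others (log2 fold change of 1.84 ± 0.22, adjusted p = 0.00107). Edn1, which encodes the peptide endothelin-1, had 208, 270.1 and 156 CPM in lactating libraries and 2.06 to 33.2 CPM (median 10.4) in the 9 others (log2 fold change of 4.04 ± 0.48, adjusted p = 0.000936). Both lay above every other library in lactation and met the rule in 4 and 2 of those 12 fits.

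The cytokine genes of this group were split by Lactating replicate 3. Il10, whose product dampens inflammation, had 1183, 1238 and 491 CPM in lactating libraries, against 169, 146 and 232 CPM in virgin, 105, 71.9 and 134 CPM in pregnant and 459, 312 and 434 CPM in post-weaning libraries. Il1rn, which encodes the interleukin-1 receptor antagonist, had 2693, 3419 and 247 CPM in lactating libraries and 362 to 532 CPM (median 389.7) in the 9 others. Il6 had 202, 221 and 1.05 CPM in lactating libraries and 7.8 to 26.6 CPM (median 10.6) in the 9 others. Replicate 3 lay above every other library for Il10, but below all 9 for both Il1rn and Il6, in which replicates 1 and 2 were far above them. With all libraries Il10 rose with a log2 fold change of 2.3 ± 0.26, adjusted p = 0.000681, Il1rn with a log2 fold change of 2.36 ± 0.46, adjusted p = 0.0139, and Il6 with a log2 fold change of 3.41 ± 0.78, adjusted p = 0.033. Without replicate 3 the same comparison gave 2.57, 2.84 and 3.93 for Il10, Il1rn and Il6. Il1rn lost its call without Lactating replicate 1 (adjusted p = 0.0513) or 2 (adjusted p = 0.0833). Tnf had 1447, 1309 and 361 CPM in lactating libraries and 156 to 632 CPM (median 365) in the 9 others (log2 fold change of 1.61 ± 0.32, adjusted p = 0.0163). Il1b had 9048, 6621 and 2722 CPM in lactating libraries and 794 to 3725 CPM (median 3099) in the 9 others (log2 fold change of 1.39 ± 0.28, adjusted p = 0.0186). In both genes replicates 1 and 2 were above all others and replicate 3 was within their range. Tnf lost its call without Lactating replicate 1 (adjusted p = 0.0828) or 2 (adjusted p = 0.0758), and Il1b likewise (adjusted p = 0.108 and 0.0712). The Il6 call was kept in 1 of the 12 fits, that without Lactating replicate 3. All 5 differed from each other stage once replicate 3 was left out, and the count of the list was then 20 higher and 0 lower of 37.

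Cd207 was among the genes with the clearest separation. It encodes langerin, a C-type lectin best known from Langerhans cells and also found on other myeloid cells. Cd207 (chromosome 6, 83671207 to 83677857) had 2992, 2558 and 1413 CPM in lactating libraries, against 324, 352 and 188 CPM in virgin, 123, 77.5 and 130.0 CPM in pregnant and 345, 257 and 287 CPM in post-weaning libraries. Every lactating library lay above the other 9, with replicate 3 lowest of the 3 and pregnant libraries lowest of all. It rose with a log2 fold change of 3.46 ± 0.24, adjusted p = 6.89e-05, and by 3.01 against virgin, 4.4 against pregnant and 2.97 against post-weaning libraries. The 5 dendritic cell markers took 0.00412%, 0.00589% and 0.0054% of the counts of the lactating libraries and 0.00159 to 0.006% (median 0.00241%) of the others. Flt3 and Zbtb46 were at 0 in lactation, while single libraries of the other stages had from 0 (Virgin replicate 1) to 3 (Virgin replicate 2) of the 5 at 0. The part of dendritic cells in the Cd207 result was not tested. Cd72, an inhibitory lectin receptor gene known from B cells, had 1278, 1280.1 and 989.9 CPM in lactating libraries and 205 to 616 CPM (median 528) in the 9 others (log2 fold change of 1.47 ± 0.15, adjusted p = 0.000365). Its 3 lactating libraries were above the rest, and it met the rule in 3 of the 12 fits without a library. The 4 B cell markers took at most 0.000375% of the counts in lactation and 0.000363 to 0.00389% in the others. Of the 4 tested genes of a longer B cell list 1 rose and 0 fell. It was Jchain, the joining chain gene of secreted antibodies made by plasma cells, with 0, 446 and 97.5 CPM in lactating libraries and 0 to 2.93 CPM (median 0) in the 9 others (adjusted p = 0.0208). Lactating replicate 1 had none, and the call was kept in 8 of the 12 fits without a library and lost without Lactating replicate 2 (adjusted p = 0.0746) and without each post-weaning replicate (adjusted p = 0.053 to 0.0589). The part of B cells or plasma cells in the Cd72 result was not tested.

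Genes of cholesterol synthesis rose at several steps of the pathway. Of 28 tested genes of cholesterol synthesis and SREBP2 control, 10 rose, 0 fell, and the median log2 fold change was 1.83, with 24 values above 0. Among the 10, Lss kept this call in 1 of the 12 fits that left out a library and Sc5d in 3, and the others in all 12. Lss was not called without replicate 3 (adjusted p = 0.245). Srebf2, which encodes SREBP2 (chromosome 15, 82147269 to 82205379), had 97.9, 91.9 and 59.2 CPM in lactating libraries, against 9.53, 11.3 and 26.8 CPM in virgin, 22.5, 17.1 and 23.4 CPM in pregnant and 20.8, 13.2 and 8.38 CPM in post-weaning libraries. Fdps, which makes farnesyl diphosphate in the mevalonate pathway (chromosome 3, 89093588 to 89101967), had 69.5, 53.4 and 47.8 CPM in lactating libraries, against 4.59, 3.49 and 8.77 CPM in virgin, 12.6, 11.6 and 14.3 CPM in pregnant and 4.12, 5.71 and 3.89 CPM in post-weaning libraries. The lactating libraries lay above all 9 others for both, and these were the only 2 of the 28 genes that differed from each other stage with all 12 libraries. Srebf2 rose with a log2 fold change of 2.31 ± 0.34, adjusted p = 0.00337, and Fdps with a log2 fold change of 3.04 ± 0.32, adjusted p = 0.000388. Srebf2 met the rule in 2 of the 12 fits that left out a library and Fdps in 7.

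**Figure D2:**
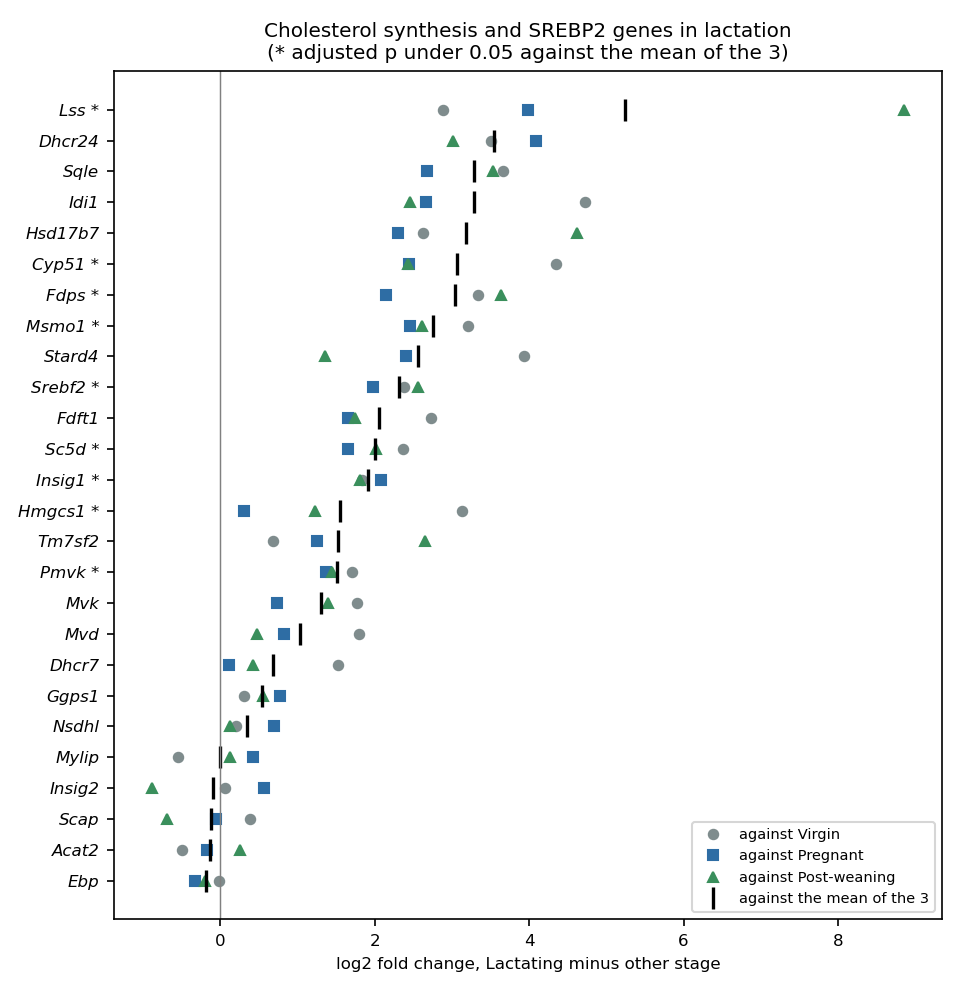
Log2 fold changes of 26 of the 28 tested genes of cholesterol synthesis and SREBP2 control, lactating minus each other stage (symbols) and minus the mean of the 3 (bars), all 12 libraries. Most genes lie right of 0 against every stage, Fdps and Srebf2 at values near 2 or above, while Ebp, Acat2, Scap, Insig2 and Mylip lie around 0.

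Enzymes later in the pathway were highest in lactating replicates 1 and 2. Cyp51, the sterol demethylase gene, had 421, 444 and 28.1 CPM in lactating libraries, against 18, 15.9 and 9.72 CPM in virgin, 50.4, 47.1 and 67.2 CPM in pregnant and 69, 55.5 and 41.7 CPM in post-weaning libraries. Msmo1, a sterol oxidase gene, had 485, 381 and 81.8 CPM in lactating libraries and 22.8 to 75.2 CPM (median 45.4) in the 9 others. Replicate 3 lay within the range of the other stages for Cyp51 and above all of them for Msmo1. Cyp51 rose with a log2 fold change of 3.07 ± 0.50, adjusted p = 0.00558 and Msmo1 with a log2 fold change of 2.76 ± 0.40, adjusted p = 0.00293. Without replicate 3 Cyp51 rose by 3.56 ± 0.21 on the log2 scale (adjusted p = 6.31e-06). In that fit 12 of 28 genes rose and 0 fell, the median was 2.21, and 6 genes differed from each other stage (Fdps, Srebf2, Cyp51, Msmo1, Sc5d and Insig1).

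Hmgcs1, which encodes HMG-CoA synthase, rose against the mean of the other stages (log2 fold change of 1.55 ± 0.26, adjusted p = 0.00705) but not against each of them. It had 131, 108 and 105 CPM in lactating libraries, against 8.61, 11.5 and 19.1 CPM in virgin, 109.5, 97.5 and 70.6 CPM in pregnant and 71.2, 36.7 and 39.8 CPM in post-weaning libraries. The lactating libraries overlapped the pregnant ones and lay above the virgin and post-weaning ones. The log2 fold changes were 3.13 against virgin, 0.31 against pregnant and 1.22 against post-weaning libraries, with adjusted p = 0.0041 against virgin, 0.701 against pregnant and 0.14 against post-weaning libraries. Pcyt2, an enzyme gene of phosphatidylethanolamine synthesis, differed from each stage, with 93.7, 128 and 91.5 CPM in lactating libraries and 21.5 to 39 CPM (median 33.5) in the 9 others (log2 fold change of 1.75 ± 0.23, adjusted p = 0.00173). It lay above all other libraries in lactation and met the rule in 3 of 12 fits. Of 15 fatty acid synthesis genes 3 rose (Elovl5, Elovl1 and Thrsp) and 1 fell with all libraries. Without replicate 3, 1 rose and 1 fell, as Thrsp (adjusted p = 0.248) and Elovl1 (adjusted p = 0.0626) lost their calls. The gene that fell was Scd1, which encodes a fatty acid desaturase, with 0.52, 0.731 and 0.527 CPM in lactating libraries and 2.3 to 58.9 CPM (median 15.4) in the 9 others (log2 fold change of -4.78 ± 0.79, adjusted p = 0.00569).

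The promoters of Hmgcs1 and Srebf2 are shown because they hold the sterol letters TCACCCCA, on either strand, which occur in 441 of the 32851 promoter windows (1.34%) and in 2 of the 21 cholesterol genes with a window. They also occur in 4 of the 29 genes with a window that were higher than in each other stage (Srebf2, Atp2b1, Edn1 and Txnrd1) and in 0 of the 31 lower ones. Capitals mark the match, which ends 129 bases before the start in Hmgcs1 and 154 in Srebf2. The sequences are from RefSeq on GRCm38.p6, plus strand, 5′ to 3′, at chr13:119690101-119690350 for Hmgcs1 and chr15:82147019-82147268 for Srebf2.
Hmgcs1: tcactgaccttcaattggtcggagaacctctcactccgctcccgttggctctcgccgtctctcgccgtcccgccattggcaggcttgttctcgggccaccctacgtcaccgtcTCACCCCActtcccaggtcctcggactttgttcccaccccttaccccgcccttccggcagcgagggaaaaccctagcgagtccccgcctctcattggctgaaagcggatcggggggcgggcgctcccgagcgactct
Srebf2: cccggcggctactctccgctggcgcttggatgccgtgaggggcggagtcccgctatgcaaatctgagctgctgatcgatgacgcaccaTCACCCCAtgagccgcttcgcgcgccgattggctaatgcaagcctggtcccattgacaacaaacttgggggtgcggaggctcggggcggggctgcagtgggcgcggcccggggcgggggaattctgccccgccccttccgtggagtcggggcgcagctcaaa
The letters were found both in a gene whose lactating level met the pregnant one and in a gene that differed from each stage.

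Oxidative stress genes of the NRF2 type gave 3 of the 40 higher genes. Srxn1 encodes sulfiredoxin, which restores oxidised peroxiredoxins (chromosome 2, 152105524 to 152111376), and had 624, 622 and 711 CPM in lactating libraries, against 86.4, 181 and 114 CPM in virgin, 65.8, 31.2 and 58.7 CPM in pregnant and 135, 149 and 158 CPM in post-weaning libraries. Txnrd1, the gene of thioredoxin reductase, had 903, 1047 and 691 CPM in lactating libraries and 179.8 to 439 CPM (median 288) in the 9 others. Sqstm1, which encodes the autophagy receptor p62, had 2039, 2025 and 2424 CPM in lactating libraries and 447 to 1203 CPM (median 900.0) in the 9 others. In all 3 genes the lactating libraries were above the rest, and replicate 3 was the highest of them for Srxn1 and Sqstm1. Srxn1 rose with a log2 fold change of 2.72 ± 0.22, adjusted p = 0.000111, Txnrd1 with a log2 fold change of 1.61 ± 0.15, adjusted p = 0.000194, and Sqstm1 with a log2 fold change of 1.51 ± 0.13, adjusted p = 0.000153. Srxn1, Txnrd1 and Sqstm1 differed from each stage in 9, 7 and 7 of the 12 fits without a library. All 3 genes lost the call when any post-weaning library was left out. Of the 22 genes of this list 5 rose (22.7%, against 2.81% of all genes tested) and 0 fell, with a median log2 fold change of 0.37. Without replicate 3, 5 rose and 1 fell.

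The Srxn1 promoter is shown because it holds TGANTCAGC, the core letters of an antioxidant response element of the AP-1 type. These letters, on either strand, occur in 335 of the 32851 windows (1.02%) and in 3 of the 17 genes of the list that have one. Capitals mark the match, which ends 36 bases before the start. The window is chr2:152105274-152105523 of GRCm38.p6 from RefSeq, plus strand, 5′ to 3′.
Srxn1: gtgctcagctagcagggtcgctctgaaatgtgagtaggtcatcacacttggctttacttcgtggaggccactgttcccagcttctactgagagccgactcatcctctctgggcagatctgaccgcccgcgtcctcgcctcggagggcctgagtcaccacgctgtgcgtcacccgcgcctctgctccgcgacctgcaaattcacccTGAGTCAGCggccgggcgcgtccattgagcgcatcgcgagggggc

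The iron importer and the iron exporter genes were called in opposite directions. Slc11a2, which encodes the ferrous iron importer DMT1 (chromosome 15, 100387898 to 100424209), had 163, 189 and 245 CPM in lactating libraries, against 35, 51.8 and 75.4 CPM in virgin, 25.9, 29.8 and 25.4 CPM in pregnant and 48.1, 47.1 and 53.1 CPM in post-weaning libraries. Slc40a1, which encodes the iron exporter ferroportin (chromosome 1, 45908070 to 45926532), had 0.173, 9.32 and 0 CPM in lactating libraries, against 73.2, 142 and 73.5 CPM in virgin, 165, 188 and 196 CPM in pregnant and 331, 1020.0 and 655 CPM in post-weaning libraries. The lactating libraries were all above the others for the importer and all below them for the exporter. Slc11a2 rose with a log2 fold change of 2.26 ± 0.21, adjusted p = 0.000194, and Slc40a1 fell with a log2 fold change of -6.28 ± 1.16, adjusted p = 0.0107. The 3 lactating libraries held 52 counts of Slc40a1 together, nearly all in replicate 2, so the size of its change is uncertain. Slc40a1 met the rule in 2 of the 12 fits without a library, those without Lactating replicates 2 and 3. Fth1, the ferritin heavy chain gene, which has processed copies in the genome and is uncertain for that reason, had 17151, 16908 and 15714 CPM in lactating libraries and 8878 to 10728 CPM (median 9452) in the 9 others (log2 fold change of 0.78 ± 0.14, adjusted p = 0.0095). All its lactating values lay above the others, and without Lactating replicate 2 its adjusted p was 0.0512. Of 18 iron and heme genes 4 rose (22.2%) and 1 fell (5.56%), against 2.81% and 1.24% of all genes tested.

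Antiviral genes contributed Oasl1 and Rsad2, while most interferon genes were not called. Oasl1, known in mice to hold back translation of the interferon regulator IRF7, had 150.4, 265 and 367 CPM in lactating libraries, against 19.2, 13.2 and 22.1 CPM in virgin, 20.02, 21 and 36.4 CPM in pregnant and 27.1, 11.9 and 31.5 CPM in post-weaning libraries. Rsad2, which encodes viperin, had 235, 485 and 189 CPM in lactating libraries and 15.9 to 64.4 CPM (median 45.3) in the 9 others. All lactating libraries lay above the others for both, with replicate 3 highest for Oasl1 and lowest for Rsad2. Oasl1 rose with a log2 fold change of 3.55 ± 0.31, adjusted p = 0.000153, and Rsad2 with a log2 fold change of 2.77 ± 0.36, adjusted p = 0.0016. Oasl1 differed from each stage in all 12 fits without a library and Rsad2 in 4. Of 39 tested type I interferon genes 4 rose (10.3%, against 2.81% of all genes tested) and 0 fell. Their median log2 fold change was 0.05.

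Several genes of signalling, transcription and membranes completed the higher set. Ccnd2, which encodes cyclin D2 and is a known target of STAT5, had 121, 123 and 136 CPM in lactating libraries, against 4.25, 12.4 and 19.8 CPM in virgin, 1.78, 3.56 and 1.99 CPM in pregnant and 17.1, 7.75 and 10.4 CPM in post-weaning libraries. Prdm1, the gene of the repressor BLIMP-1, had 184, 216 and 299 CPM in lactating libraries and 54.5 to 101 CPM (median 63.4) in the 9 others. Dusp5, a phosphatase gene that acts on ERK in the nucleus, had 172, 254 and 190.1 CPM in lactating libraries and 24.2 to 74.2 CPM (median 46.4) in the 9 others. The lactating libraries lay above all others for these 3 genes, at similar levels in replicates 1, 2 and 3 for Ccnd2. Ccnd2 rose with a log2 fold change of 4.17 ± 0.38, adjusted p = 0.000166, Prdm1 with a log2 fold change of 1.81 ± 0.18, adjusted p = 0.000285, and Dusp5 with a log2 fold change of 2.24 ± 0.19, adjusted p = 0.000151. Each met the rule against every stage in 10 of the 12 fits without a library, and was lost without Post-weaning replicate 2, where the largest of the 3 adjusted p-values was 0.111 for Ccnd2, 0.0991 for Prdm1 and 0.0852 for Dusp5. Clic4, a chloride intracellular channel gene, had 1016, 1143 and 1148 CPM in lactating libraries and 214 to 497 CPM (median 366) in the 9 others (log2 fold change of 1.75 ± 0.14, adjusted p = 9.04e-05). Rilpl2, a gene of membrane traffic, had 353, 373 and 576 CPM in lactating libraries and 83.3 to 141 CPM (median 121) in the 9 others (log2 fold change of 1.96 ± 0.16, adjusted p = 0.00011). Both were above all other libraries in lactation, with replicate 3 highest, and kept the call in every one of those fits. Dot1l, the gene of the histone H3 lysine methyltransferase of active genes, had 164, 279 and 218 CPM in lactating libraries and 20.02 to 88.4 CPM (median 52) in the 9 others (log2 fold change of 2.26 ± 0.23, adjusted p = 0.000307). The lactating values of Dot1l lay above all others, and it met the rule in 6 of the 12 fits. Of 19 prolactin and STAT5 genes 5 rose and 1 fell, with a median log2 fold change of 0.50.

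The other 13 higher genes were Tlnrd1, 5430437J10Rik, Itpkc, Rapgef2, Aprt, Basp1, Zmynd15, Atp2b1, Plekho2, Dyrk1a, Slc15a3, Tubb6 and Rasa2, with log2 fold changes of 1.17 to 2.62. Aprt, which salvages adenine, had 191, 168 and 204 CPM in lactating libraries and 38.1 to 81.9 CPM (median 62.3) in the 9 others, and Atp2b1, the gene of a calcium pump of the plasma membrane, 591, 867 and 884 CPM in lactating libraries and 182 to 408 CPM (median 229) in the 9 others. Both lay above every other library in lactation, and Atp2b1, Tubb6 and Rasa2 were the 3 higher genes that did not meet the rule without replicate 3.

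Milk protein genes are the products of the secretory epithelium and were counted in these libraries too. Csn1s2b, a casein gene, was among the 40 higher genes, with 460.4, 462 and 5493 CPM in lactating libraries, against 0, 0 and 0 CPM in virgin, 2.56, 0 and 0 CPM in pregnant and 0, 0 and 0 CPM in post-weaning libraries. Outside lactation it was counted in 1 pregnant library, and replicate 3 held most of it. It met the rule in 3 of the 12 fits without a library, that without replicate 3 among them (largest adjusted p = 0.0135). Csn2, the beta-casein gene, had 286, 243 and 14394 CPM in lactating libraries, against 0, 0 and 0.0731 CPM in virgin, 3111, 316 and 456 CPM in pregnant and 39.8, 47.1 and 17.7 CPM in post-weaning libraries, and Wap, the whey acidic protein gene, 399, 307 and 14816 CPM in lactating libraries and 0 to 114 CPM (median 0) in the 9 others. Replicate 3 was far above every other library for both, while for Csn2 replicates 1 and 2 lay below every pregnant library and above the virgin and post-weaning ones. Of 22 milk and secretory genes 8 rose and 0 fell, with a median log2 fold change of 3.73 that stood at 1.10 without replicate 3, where 7 rose and 1 fell. The secretory markers took the shares of counts given above, highest in replicate 3. Their part in other results was not tested, and they were counted in each lactating library, replicates 1 and 2 included.

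Growth factor genes were among the lower genes. Of 20 tested growth factor genes 2 fell, Igf1 and Pdgfc, and 2 rose, Csf1 and Hbegf, beside 1.24% lower and 2.81% higher of all genes tested. Hbegf kept its call in 3 of the 12 fits that left out a library. It lost the call without Lactating replicate 3 (adjusted p = 0.219), where 1 of 22 genes rose and 2 fell. Igf1, which encodes insulin-like growth factor 1, a known macrophage product (chromosome 10, 87858265 to 87937047), had 0, 0 and 0 CPM in lactating libraries, against 4.71, 11.3 and 8.55 CPM in virgin, 8.9, 10.2 and 14.4 CPM in pregnant and 32, 64 and 41.1 CPM in post-weaning libraries. Pdgfc, the gene of platelet-derived growth factor C, had 0, 0 and 0.527 CPM in lactating libraries, against 9.64, 9.82 and 6.29 CPM in virgin, 23, 19 and 23 CPM in pregnant and 54.5, 52.9 and 28 CPM in post-weaning libraries. Igfbp5, which encodes an IGF-binding protein, had 0, 0 and 0.0878 CPM in lactating libraries, against 17.7, 9.27 and 59.6 CPM in virgin, 6.56, 2.29 and 8.16 CPM in pregnant and 259, 81.9 and 59 CPM in post-weaning libraries. Lactating libraries were at or near 0 for these 3 genes and below all others, and the post-weaning mean was the highest for each. Igf1 was at least 64.9-fold lower than in virgin, 93.2-fold lower than in pregnant and 339-fold lower than in post-weaning libraries in pooled counts, against a floor of 3 counts over the stage (adjusted p = 0.00042). Pdgfc fell with 6 counts in the 3 lactating libraries together (adjusted p = 0.00213), and Igfbp5 with 1 (adjusted p = 0.00213). Igf1 and Pdgfc kept the call against each stage in all 12 fits without a library, and Igfbp5 lost it without Lactating replicate 3, where the largest of its 3 adjusted p-values was 0.0507. Such bounds cover counting error only, since PCR copies of 1 molecule are counted as separate reads.

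**Figure D3:**
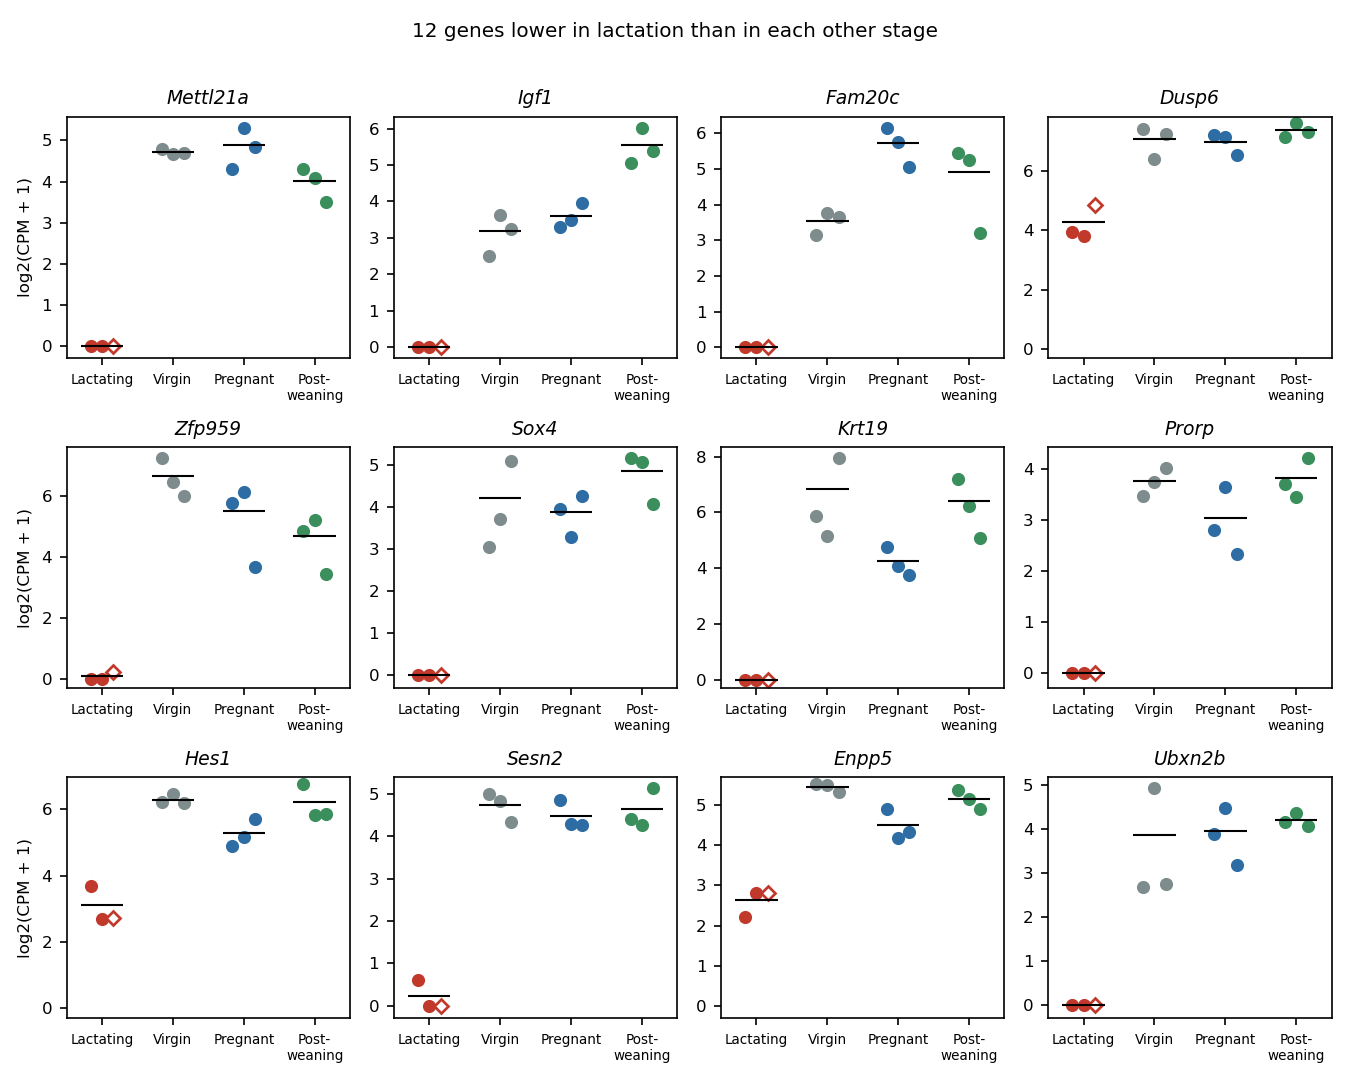
Log2(CPM + 1) in each library for the 12 genes that fell against each other stage with the smallest of their largest adjusted p-values; lines mark log2 of the stage mean CPM + 1, each point is 1 library and the open diamond is Lactating replicate 3. Lactating libraries are at 0 in all 3 replicates for Mettl21a, Igf1, Fam20c, Sox4, Krt19, Prorp and Ubxn2b and above 0 in all 3 for Dusp6, Hes1 and Enpp5.

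Regulators of signalling and transcription fell as well. Dusp6, a phosphatase gene that acts on ERK in the cytoplasm and is itself induced by ERK signalling (chromosome 10, 99263231 to 99267489), had 14.2, 13 and 27.6 CPM in lactating libraries, against 171, 84.1 and 149 CPM in virgin, 145, 140.4 and 91.6 CPM in pregnant and 140.2, 197 and 157 CPM in post-weaning libraries. Hes1, a repressor gene downstream of Notch (chromosome 16, 30065357 to 30067796), had 11.8, 5.48 and 5.62 CPM in lactating libraries, against 72.8, 87.2 and 71.7 CPM in virgin, 28.6, 34.5 and 51.2 CPM in pregnant and 107, 55.5 and 57.4 CPM in post-weaning libraries. The lactating libraries were below all 9 others for both. Dusp6 fell with a log2 fold change of -2.94 ± 0.34, adjusted p = 0.00082, with values of -2.87 against virgin, -2.78 against pregnant and -3.17 against post-weaning libraries. Hes1 fell with a log2 fold change of -2.98 ± 0.39, adjusted p = 0.0016. Both were kept in all 12 fits without a library. The ERK phosphatase genes Dusp5 and Dusp6 were called in opposite directions. Sox4, a transcription factor gene, had 0 counts in lactation and 7.23 to 34.7 CPM in the others, at least 144-fold lower than in virgin, 116-fold lower than in pregnant and 206-fold lower than in post-weaning libraries in pooled counts. Klf11, another transcription factor gene, had 1 count in lactation and 2.34 to 19.7 CPM in the other libraries (adjusted p = 0.00331). Sesn2, which encodes a stress-induced inhibitor of mTORC1, had 3 counts in lactation and 18.2 to 34.3 CPM in the others (adjusted p = 0.00218).

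Ctsd, Tmem86a and Cd300lf were lower in lactation and were counted in every lactating library. Ctsd, the gene of cathepsin D, a lysosomal protease (chromosome 7, 142375910 to 142387827), had 237, 265 and 179 CPM in lactating libraries, against 431, 1334 and 875 CPM in virgin, 3076, 3301 and 2228 CPM in pregnant and 1088, 1891 and 1202 CPM in post-weaning libraries. Tmem86a, which encodes a lysoplasmalogenase, had 33.4, 28.7 and 45.5 CPM in lactating libraries and 84.5 to 181 CPM (median 134) in the 9 others. Cd300lf, an inhibitory receptor gene whose product binds phospholipids, had 28.4, 42.2 and 47 CPM in lactating libraries and 81.4 to 184 CPM (median 125) in the 9 others. All lactating libraries lay below the others for these genes, and for Ctsd the pregnant libraries were the highest. Ctsd fell with a log2 fold change of -2.74 ± 0.36, adjusted p = 0.00169, Tmem86a with a log2 fold change of -1.92 ± 0.27, adjusted p = 0.00276, and Cd300lf with a log2 fold change of -1.63 ± 0.23, adjusted p = 0.00276. They met the rule in 8, 9 and 8 of the 12 fits without a library. Of 52 lysosomal genes tested 2 rose (3.85%) and 1, Ctsd, fell (1.92%), with a median log2 fold change of -0.15. These shares are near the 2.81% and 1.24% of all genes tested. Without replicate 3, 3 rose and 1 fell. Angptl4, which encodes an inhibitor of lipoprotein lipase, had 7 counts in lactation and 11.2 to 55.3 CPM in the others (adjusted p = 0.00932). Marchf1, which encodes a ubiquitin ligase that removes MHC class II and CD86 from the surface, had 43.7, 22.1 and 31.1 CPM in lactating libraries and 61.8 to 149 CPM (median 104) in the 9 others (log2 fold change of -1.69 ± 0.31, adjusted p = 0.0101). It met the rule in 2 of the 12 fits and not without replicate 3, where its largest adjusted p was 0.0704.

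Of the 40 lower genes 20 had 0 counts in every lactating library, as did 6.87% of all genes tested. Fam20c, the gene of the Golgi kinase that phosphorylates secreted proteins including caseins, was 1 of them, with 7.8 to 69.9 CPM in the other libraries, at least 83-fold lower than in virgin, 338-fold lower than in pregnant and 215-fold lower than in post-weaning libraries in pooled counts. Mettl21a, which encodes a methyltransferase of heat shock proteins, had 10.4 to 38.7 CPM in the others and was at least 191-fold lower than in virgin, 212-fold lower than in pregnant and 113-fold lower than in post-weaning libraries. Prorp, which encodes a subunit of mitochondrial RNase P, had 4.02 to 17.6 CPM in the others and was at least 97.8-fold lower than in virgin, 45.4-fold lower than in pregnant and 101-fold lower than in post-weaning libraries. These 3 genes had no count in any lactating library and kept the call in all 12 fits without a library. The cell division genes Ncaph and Dsn1 were also at 0, as was Cdkn2c, a gene of a cell cycle inhibitor. Ncaph, Dsn1 and Cdkn2c met the rule in 8, 4 and 0 of the 12 fits without a library. Of 49 tested cell cycle genes 0 rose and 0 fell against the mean of the other stages in edgeR, 3 passed an unadjusted p of 0.05, and DESeq2 called 3. Without replicate 3 the count was 0 higher and 2 lower, Ccnb1 and Tpx2, with a median log2 fold change of -1.1, against -0.2 with all libraries, and 1 was higher and 11 were lower at an unadjusted p of 0.05, while DESeq2 called 0 higher and 7 lower. Ccnb1, the cyclin B1 gene, had 0, 0 and 18.6 CPM in lactating libraries and 0 to 89.1 CPM (median 10.2) in the 9 others, and replicate 3 held all of its lactating counts (adjusted p = 0.73 with that library and 0.047 without it). The part of the lower number of detected genes in the lactating libraries, 10178 to 11462, in these zeros was not tested.

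Krt19 was at 0 in lactation as well. It encodes a keratin of luminal epithelium and had 12.6 to 246 CPM (median 35) in the other libraries, at least 928-fold lower than in virgin, 122-fold lower than in pregnant and 636-fold lower than in post-weaning libraries in pooled counts. The 6 luminal markers together took 0.00704%, 0.0103% and 0.028% of the counts in lactating replicates 1, 2 and 3 and 0.01 to 0.081% (median 0.0247%) in the others, with Krt19, Cldn3 and Cdh1 at 0 in lactation. Of 16 luminal genes tested 2 fell in edgeR, Krt19 and Krt7, and 0 rose, while DESeq2 called 7 lower and 0 higher. Krt7 kept its edgeR call in 3 of the 12 fits that left out a library. It lost the call without replicate 3 (adjusted p = 0.0777), where 1 of 17 luminal genes fell and 0 rose. The part of epithelial cells in the Krt19 result was not tested. Sox10, a transcription factor gene not known as a macrophage gene, also had 0 counts in lactation and lost the call in each of the 12 fits without a library.

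The other lower genes were Zfp959, Enpp5, Ubxn2b, Lysmd2, Enpp4, Actr6, Kiz, Rbak, Tlk1, Phactr2, Plekhb1, Adprm, Tia1, B630019K06Rik, Trim68, Pik3ip1, 2610035D17Rik and Tifa. Of all 40 lower genes 8 more had 1 to 7 counts in lactation together, and the 12 with over 7 had a median log2 fold change of -1.96, between -6.28 and -1.52. Without replicate 3, 6 of the 40 did not meet the rule (Igfbp5, Pik3ip1, 2610035D17Rik, Cdkn2c, Marchf1 and Sox10).

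**Figure D4:**
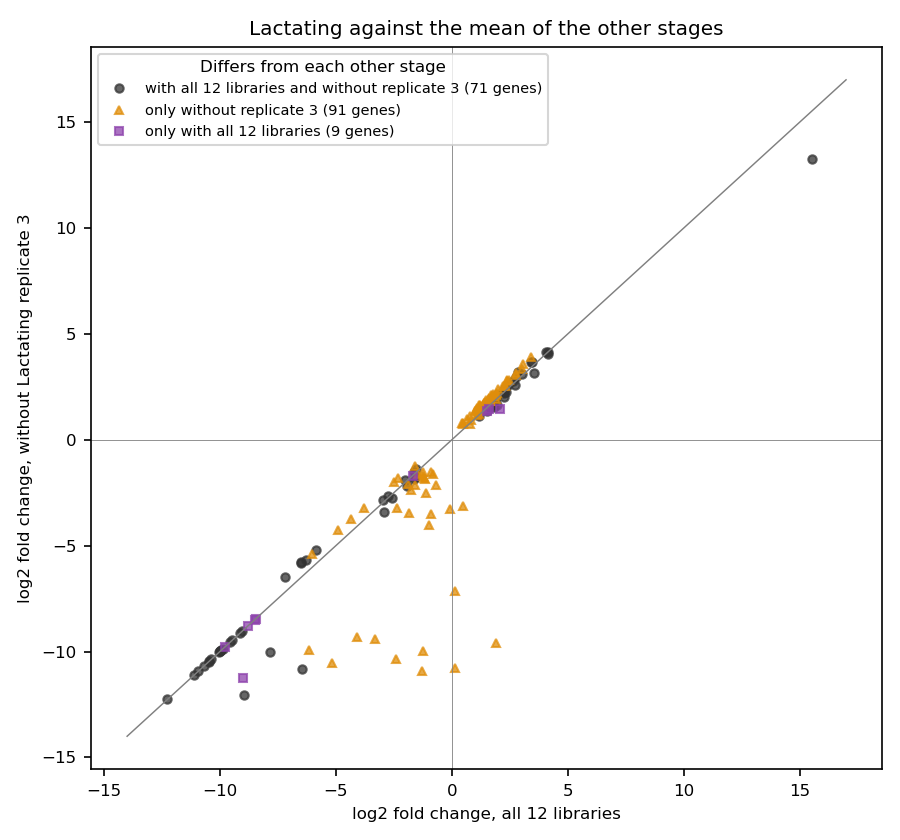
Log2 fold change of lactating libraries against the mean of the other stages for genes that differ from each other stage, with all 12 libraries (horizontal) and without Lactating replicate 3 (vertical); symbols show in which fit the gene met the rule, and the line is equality. Points called only without replicate 3 are 56 higher and 35 lower genes, and 4 of those 35 had a value above 0 with all libraries.

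Leaving out Lactating replicate 3 added 56 higher genes. In all 56 its level was below the mean of replicates 1 and 2, with a median ratio of 0.32, and in 19 it was still above every library of the other stages while in 9 it was below all of them. The 56 were chosen by the fit without this library, so a low level in it is partly built into the set. The ratio over all genes tested was not taken, so 0.32 is not shown to be particular to them. Macrophage markers were also low in replicate 3, at 1.32% of counts against 3.28% and 3.05% in replicates 1 and 2. Mmp12, the macrophage elastase gene, had 10754, 10449 and 2946 CPM in lactating libraries and 1491 to 3978 CPM (median 3009) in the 9 others. Ccr1, the gene of the CCL9 receptor, had 1706, 1972 and 398 CPM in lactating libraries and 381 to 621 CPM (median 488) in the 9 others. Dcstamp, a gene needed for fusion of macrophages and osteoclasts, had 1501, 1637 and 508 CPM in lactating libraries and 24.6 to 257 CPM (median 179) in the 9 others. Replicates 1 and 2 were above all others for these genes, and replicate 3 was above them only for Dcstamp. Without replicate 3 Mmp12 rose by 1.93 ± 0.12 on the log2 scale (adjusted p = 6.31e-06), Ccr1 by 1.79 ± 0.14 on the log2 scale (adjusted p = 3.74e-05), and Dcstamp by 3.32 ± 0.42 on the log2 scale (adjusted p = 0.000848). With all libraries the same 3 genes also rose against the mean of the others, by 1.58 ± 0.29 on the log2 scale (adjusted p = 0.00991) for Mmp12, 1.41 ± 0.33 on the log2 scale (adjusted p = 0.0351) for Ccr1 and 3.01 ± 0.44 on the log2 scale (adjusted p = 0.00319) for Dcstamp. Mmp12 then lost its call without Lactating replicate 1 (adjusted p = 0.0514) or 2 (adjusted p = 0.0572), and Ccr1 kept it in 1 of the 12 fits.

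Calls among genes of MHC class II presentation rested on whether that library was used. With all 12 libraries 0 of 15 tested members rose or fell in edgeR, with a median log2 fold change of 0.44, while 2 passed an unadjusted p of 0.05 and DESeq2 called 2. Without replicate 3, 7 rose and 0 fell, with a median of 0.76. H2-Ab1, a class II beta chain gene, had 45741, 43887 and 11572 CPM in lactating libraries, against 23723, 25011 and 25704 CPM in virgin, 24579, 25164 and 18679 CPM in pregnant and 26837, 24676 and 30269 CPM in post-weaning libraries. H2-Aa, its alpha chain partner, had 24665, 24284 and 8771 CPM in lactating libraries and 11178 to 15893 CPM (median 13314) in the 9 others, and H2-Eb1 18565, 19044 and 7613 CPM in lactating libraries and 9699 to 12448 CPM (median 10732) in the 9 others. In each gene replicates 1 and 2 lay above and replicate 3 below all 9 other libraries. The H2-Ab1 difference was 0.44 ± 0.32 on the log2 scale (adjusted p = 0.491) with all libraries, and H2-Ab1 rose by 0.8 ± 0.11 on the log2 scale (adjusted p = 0.00174) without replicate 3. Cd86, a costimulatory receptor gene, had 2690.3, 3294 and 683 CPM in lactating libraries and 658 to 1343 CPM (median 1076) in the 9 others, with a log2 fold change of 1.04 ± 0.34, adjusted p = 0.122, and it rose by 1.41 ± 0.17 on the log2 scale (adjusted p = 0.000583) without replicate 3. The macrophage markers took 1.32% of the counts of replicate 3, and their part in these genes was not tested.

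Of the 35 lower genes that appeared only without replicate 3, that library was below all 9 others in 19 and above all 9 in 4. The level of replicate 3 bears on the choice of this set too. Nedd4, a ubiquitin ligase gene, had 0, 0 and 64.2 CPM in lactating libraries and 5.05 to 39.9 CPM (median 21.6) in the 9 others. Esam, an adhesion gene of endothelium, had 0, 0 and 97 CPM in lactating libraries and 2.14 to 21.6 CPM (median 8.06) in the 9 others. Hspa1a, a heat shock gene with a near-identical copy in Hspa1b and uncertain for that reason, had 22, 15 and 283 CPM in lactating libraries and 82.8 to 497 CPM (median 228) in the 9 others. For Nedd4 and Esam replicates 1 and 2 were at 0 and replicate 3 was the highest of the 12 libraries, and for Hspa1a it stood inside the range of the others. Endothelial markers took 0.0249% of the counts of replicate 3, against 0.000164% and 0.00143% in replicates 1 and 2 and at most 0.00442% in the other stages, and their part in the Esam values was not tested. Plin2, the gene of a lipid droplet coat protein, had 284, 363 and 782 CPM in lactating libraries and 614 to 1209 CPM (median 874) in the 9 others. Replicates 1 and 2 lay below all others and replicate 3 within their range. The difference was -0.91 ± 0.32 on the log2 scale (adjusted p = 0.147) with all libraries and -1.52 ± 0.26 on the log2 scale (adjusted p = 0.00652) without replicate 3, where Plin2 fell against each other stage.

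**Figure D5:**
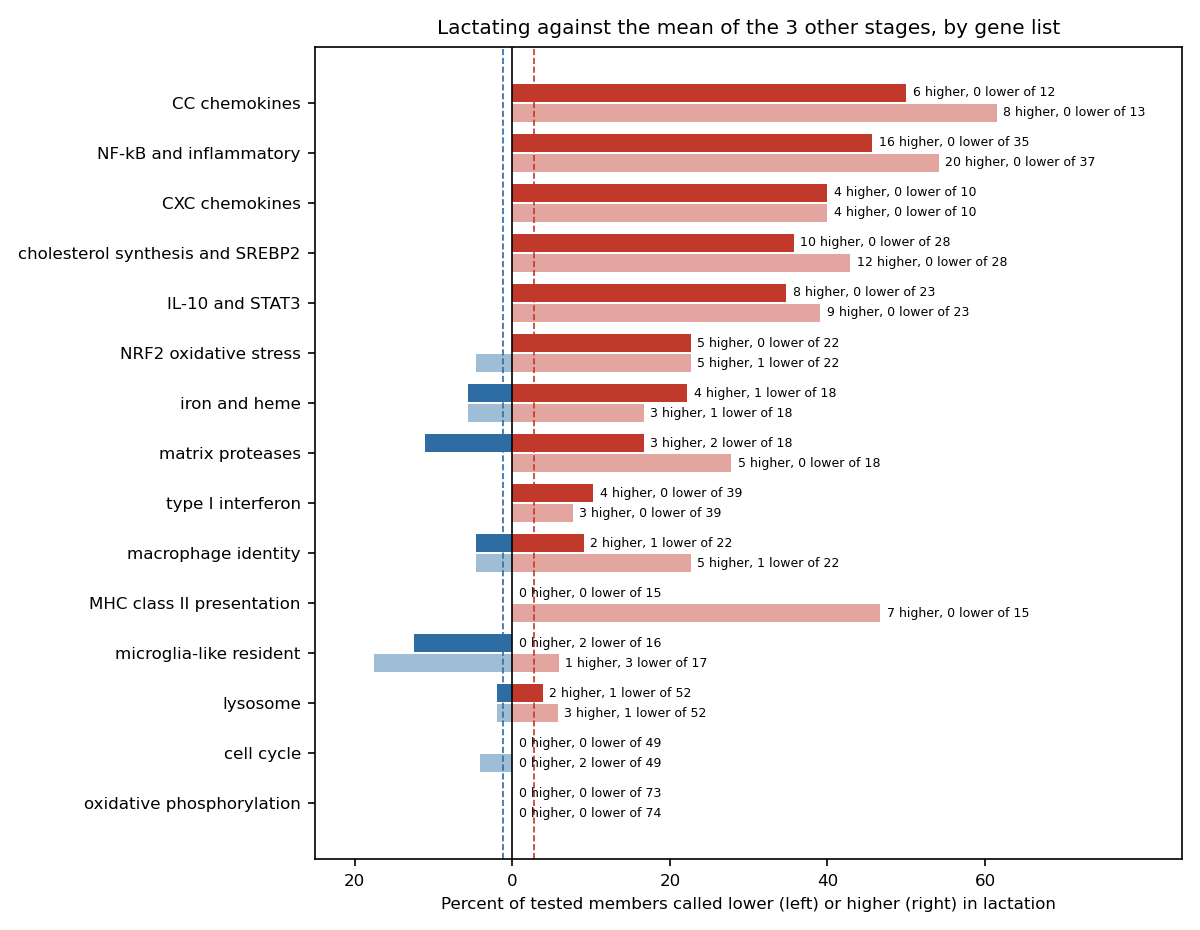
Percent of the tested members of 15 gene lists that rose (right) or fell (left) in lactation against the mean of the other stages, with all 12 libraries (solid) and without Lactating replicate 3 (pale); dashed lines are the percentages over all genes tested, 2.81% higher and 1.24% lower. Chemokine, NF-kB, cholesterol and IL-10 lists have 34.8 to 50% of members higher with all libraries, and the MHC class II list has 0% with that library and 46.7% without it.

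Of 29 glycolysis and hypoxia genes 4 rose against the mean of the other stages (Hk3, Pfkfb4, Aldoa and Pkm) and 0 fell. The 4 made up 13.8%, against 2.81% of all genes tested, and the median log2 fold change of the list was 0.39. Pkm, the pyruvate kinase gene, had 399, 308 and 585 CPM in lactating libraries and 126 to 294 CPM (median 240.4) in the 9 others (log2 fold change of 0.96 ± 0.20, adjusted p = 0.0208), and its lactating libraries lay above all others. Pkm kept the call in 8 of the 12 fits without a library, Hk3 in 5, Pfkfb4 in 1 and Aldoa in 0. Without replicate 3 none of the 4 was called (adjusted p = 0.103 for Pkm to 0.317 for Pfkfb4), and of 30 tested genes 2 rose, Slc2a1 and Hk2. Of 73 oxidative phosphorylation genes 0 rose and 0 fell in edgeR against the mean of the other stages, 1 passed an unadjusted p of 0.05, and DESeq2 called 0. Of 24 MHC class I genes 0 rose and 0 fell, 6 passed the unadjusted threshold, and DESeq2 called 1. Of 22 macrophage identity genes 2 rose (Spi1 and Cd14, 9.09%) and 1 fell (Cx3cr1, 4.55%), against 2.81% and 1.24% of all genes tested. The calls of Spi1 and Cd14 were kept in 1 and 3 of the 12 fits without a library. Adgre1 averaged 715 ± 394 CPM in lactating, 744 ± 66.5 in virgin, 608 ± 112 in pregnant and 742 ± 59 CPM in post-weaning libraries (SD, n = 3 each), and Csf1r 1269 ± 676 CPM in lactating, 1051 ± 18.8 in virgin, 1270.0 ± 117 in pregnant and 1078 ± 156 CPM in post-weaning libraries. Replicate 3 was below all 9 other libraries for both, at 263 CPM of Adgre1 and 489 CPM of Csf1r, and replicates 1 and 2 were above them. Neither gene was called (adjusted p = 0.985 and 0.816). Cx3cr1, the fractalkine receptor gene, had 211, 226 and 181 CPM in lactating libraries and 226 to 480.3 CPM (median 374) in the 9 others and fell with a log2 fold change of -0.82 ± 0.17, adjusted p = 0.0203. Its lactating libraries lay at or below the lowest of the others, and without Lactating replicate 1 its adjusted p was 0.0501. Malat1, a nuclear long noncoding RNA, had 12075, 16676 and 37476 CPM in lactating libraries and 5183 to 11883 CPM (median 6817) in the 9 others (log2 fold change of 1.5 ± 0.30, adjusted p = 0.0166). Replicate 3 held the highest Malat1 level of all 12 libraries, and without it the gene was not called (log2 fold change 0.82, adjusted p = 0.0586).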

How the data were processed

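For 12 libraries the authors deposited counts of reads by gene as whole numbers, without normalization, made with featureCounts on mm10 per the submitters' processing notes. No aligner or strand setting is named in the labels, so reads of overlapping and antisense genes cannot be told apart. The per-sample files were identical to the series table in all 12 libraries. Of 27179 genes 93% matched RefSeq gene IDs, which gave the symbols. Genes were filtered with filterByExpr by stage, scaled by TMM and fitted with edgeR 4.0.16 (R 4.3.3) by quasi-likelihood with robust priors and 1 mean for each stage. Adjusted p-values in the report are edgeR's, by Benjamini-Hochberg over all genes tested, with a threshold of 0.05. Limma 3.58.1 and DESeq2 1.42.0 gave alternatives. The fit was tested on simulated data. Folds of genes at 0 in lactation are bounds against 3 counts pooled over the stage.

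The members and lists were chosen with earlier results of these data known. The naming rule took the genes with the smallest of the largest adjusted p-values against the 3 stages at a mean log2 CPM of at least 3, up to 3 called genes of each list, and fixed genes. Other named genes and the motifs were chosen after their values were seen. The kB letters searched in promoter windows were shortened by 1 base after the matches of the longer form had been seen. Values of 2 genes of the cholesterol list are not reported here, and the list's counts include them.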

Additional observations from a re-analysis of the deposited data

How the results depend on the processing

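The count against the mean of the other stages, 513, was 1534 in DESeq2, 212 in a test against a 1.5-fold change and 327 with the 9 other libraries as 1 group, and 326 to 595 with 1 library left out. Against virgin libraries, 246 became 1166 in DESeq2, 114 in the 1.5-fold test and 111 to 416 with 1 library left out. Against pregnant libraries, 488 became 1469 in DESeq2, 998 in voom with quality weights, 240 in the 1.5-fold test and 194 to 689 with 1 library left out. Against post-weaning libraries, 117 became 919 in DESeq2, 201 in voom, 387 in voom with quality weights, 38 in the 1.5-fold test and 26 to 242 with 1 library left out. The 80 genes that differed from each stage became 441 in DESeq2, 151 in voom with quality weights, 31 in the 1.5-fold test and 22 to 162 with 1 library left out. With Lactating replicate 3 left out and the same genes tested, a setting chosen after seeing the data, they became 165. Of the 80 genes themselves, 79 were kept in DESeq2, 59 in voom and 57 in voom with quality weights. Of the called genes against the mean of the other stages 69.4% were higher, against 44% in DESeq2, 81.8% in voom with quality weights, 57.8% with the 9 libraries as 1 group, and 54.4% and 55.8% without Lactating replicates 1 and 2. The cause of these differences was not tested.

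Replicate numbers showed no pairing of the libraries. The deviations of same-numbered libraries from their stage means, in log2 CPM across genes, correlated at -0.068 to 0.073 in 18 pairs. With the replicate block the counts were 139 against virgin, 42 against post-weaning libraries and 35 against each stage. Of those 35 genes 33 were among the 80.

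Of 2330 values of 106 named genes 9 reversed. Sparc was -0.172 without Lactating replicate 3 and up to 3.407 with another library left out. Adgre1 was -0.225 in voom, -0.029 with the replicate block, and -0.302 to 0.384 with 1 library left out, below 0 without Pregnant replicate 1 and Lactating replicates 1 and 2. Csf1r was -0.069 in voom and -0.111 to 0.501 with 1 library left out, below 0 without Lactating replicates 1 and 2. Without Lactating replicate 3 Csf1r was called higher. Of 100 called genes 65 kept the call with every library left out in turn. Lactating libraries held 6926273 to 10445732 counts, and a gene at 0 in all of them is bounded by 3 counts pooled over the stage.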

Other observations

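Some genes of cytokine and growth factor signalling rose in lactation without differing from each other stage. Csf1, which encodes the growth factor that macrophages depend on, had 14, 73.6 and 28.9 CPM in lactating libraries, against 0, 0 and 0 CPM in virgin, 0.445, 2.41 and 1.66 CPM in pregnant and 8.15, 3.16 and 6.4 CPM in post-weaning libraries. Jak2, the gene of the kinase behind the prolactin receptor and several cytokine receptors, had 87.2, 132 and 139 CPM in lactating libraries and 20.8 to 69.6 CPM (median 41.4) in the 9 others. Bcl2l1, which encodes the survival factor BCL-XL, had 107, 191 and 225 CPM in lactating libraries and 18.9 to 72.4 CPM (median 40.8) in the 9 others. All lactating libraries lay above the other 9 for these 3 genes. Csf1, with 0 counts in virgin libraries, rose with an adjusted p of 0.00148 in edgeR, and was not called against post-weaning libraries (log2 fold change of 2.71, adjusted p = 0.201). Jak2 rose with a log2 fold change of 1.46 ± 0.26, adjusted p = 0.0095, and Bcl2l1 with a log2 fold change of 2.07 ± 0.29, adjusted p = 0.00214. Of 23 IL-10 and STAT3 genes 8 rose and 0 fell in edgeR, with a median log2 fold change of 0.52, and 9 rose in DESeq2. All 3 genes kept the call in each of the 12 fits that left out a library.

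Lipid handling genes were split. Pparg, which encodes a nuclear receptor for fatty acids, had 63.9, 48.2 and 87.7 CPM in lactating libraries and 2.41 to 38.6 CPM (median 20.4) in the 9 others (log2 fold change of 2.08 ± 0.34, adjusted p = 0.00564). Cd36, a scavenger receptor gene that PPAR gamma is known to induce, had 1949, 2426 and 1790.4 CPM in lactating libraries and 73.8 to 1470.0 CPM (median 983) in the 9 others (log2 fold change of 1.94 ± 0.35, adjusted p = 0.00901). Abcg1, the gene of a cholesterol exporter induced by LXR, had 8.32, 20.8 and 18.2 CPM in lactating libraries and 24.8 to 78.4 CPM (median 55.4) in the 9 others (log2 fold change of -1.74 ± 0.38, adjusted p = 0.0252). Pparg and Cd36 rose and kept the call in all 12 fits without a library, and Abcg1 fell and kept it in 8. The lactating values lay above all others for Pparg and Cd36 and below them for Abcg1. Of 25 LXR and PPAR genes 2 rose and 2 fell in edgeR, with a median of -0.26. The other gene that fell was Angptl4, described above, which differed from each other stage (adjusted p = 0.00932). DESeq2 called 3 higher and 8 lower. Without Lactating replicate 3, 2 rose and 5 fell in edgeR. Pparg and Cd36 were again the genes that rose, and Plin2, Pltp and Cpt1a fell beside Abcg1 and Angptl4.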
